A study of Rattus norvegicus with 22 samples.

Results

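Matrix metalloproteinases and their inhibitor Timp1 were followed in oral squamous cell carcinomas (OSCC) of the rat tongue and in adjacent phenotypically normal tongue. The 10 genes Mmp2, Mmp3, Mmp7, Mmp8, Mmp9, Mmp10, Mmp12, Mmp13, Mmp14 and Timp1 were taken by gene symbol from the 19167 symbols on the array, each on the probe with the highest mean signal over all 22 arrays. They had 11 probes among the 30367 probes measured, and Mmp2 was the 1 gene of the 10 with a second probe.

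The arrays held 11 tissue pairs, 1 from each of 11 male F344 rats that drank water with the carcinogen 4-nitroquinoline 1-oxide (4-NQO) at 20 ppm for 10 weeks. Both pieces of a pair came from the same carcinogen-treated animal, aged about 33 weeks by the labels and killed between 23 and 26 weeks after the first exposure. The sample titles call every animal untreated and give the normal pieces no treatment, but by the protocol the normal group is adjacent tissue of treated rats and holds no unexposed rat. Each array measured total RNA of a whole tissue piece, in which fewer cells of a type and less RNA per cell cannot be told apart.

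Matrix metalloproteinases are zinc-dependent enzymes that are secreted as inactive precursors, or held at the cell surface, and cut collagens, laminins, elastin and other proteins outside the cell once their prodomain is removed. Collagenases open the triple helix of fibrillar collagen, gelatinases degrade the unwound chains, stromelysins cut a wide range of matrix proteins and can activate other members, and tissue inhibitors of metalloproteinases block the active site. In squamous carcinomas the family is known from the invasive epithelial edge as well as from fibroblasts, macrophages and neutrophils of the surrounding stroma, and a pair of members, Mmp8 and Mmp9, is stored in neutrophil granules.

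In the current rat reference (RefSeq, build GRCr8), 6 of the 10 genes lie in a run of 10 protein-coding genes over 358 kb of chromosome 8, in the order Mmp13, Mmp12, Mmp1b, Mmp3, Mmp1, Mmp10, Mmp8, Mmp27, Mmp20 and Mmp7. The promoters of these 6 neighbours are shown because 5 of the 6 were called higher in OSCC and the sixth, Mmp3, moved with them in most pairs. Each line gives the 120 bases before the annotated transcript start, 5′ to 3′, with capitals for the AP-1 motif TGANTCA and for the TATA box TATAAA wherever either occurred on one or the other strand.
Mmp13 (chr8:12782709-12782828, + strand): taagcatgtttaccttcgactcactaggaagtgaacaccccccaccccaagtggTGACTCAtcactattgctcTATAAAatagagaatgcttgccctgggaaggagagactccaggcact
Mmp12 (chr8:12866532-12866651, + strand): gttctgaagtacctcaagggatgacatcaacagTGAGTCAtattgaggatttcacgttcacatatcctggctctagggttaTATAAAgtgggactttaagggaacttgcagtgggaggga
Mmp3 (chr8:12925161-12925280, + strand): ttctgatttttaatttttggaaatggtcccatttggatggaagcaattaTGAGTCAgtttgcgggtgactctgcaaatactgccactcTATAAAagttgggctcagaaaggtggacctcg
Mmp10 (chr8:12974587-12974706, + strand): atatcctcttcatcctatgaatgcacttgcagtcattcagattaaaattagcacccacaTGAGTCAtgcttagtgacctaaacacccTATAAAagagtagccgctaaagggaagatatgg
Mmp8 (chr8:13008770-13008889, + strand): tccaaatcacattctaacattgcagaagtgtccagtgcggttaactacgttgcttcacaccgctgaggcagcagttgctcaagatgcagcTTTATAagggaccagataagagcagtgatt
Mmp7 (chr8:13132923-13133042, + strand): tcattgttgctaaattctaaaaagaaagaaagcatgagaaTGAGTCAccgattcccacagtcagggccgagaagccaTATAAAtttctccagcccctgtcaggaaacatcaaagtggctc
The AP-1 motif is bound by dimers of Fos and Jun proteins. It stood 66 bases before the start in Mmp13, 87 in Mmp12, 71 in Mmp3, 61 in Mmp10 and 80 in Mmp7. No TGANTCA was found in the 250 bases searched before Mmp8 or before Timp1, so 5 of the 7 promoters at hand held it. Of all 33469 rat promoters of the same length 6.34% held it, as did 8.79% of the 956 promoters matched to genes called higher in OSCC. The TATA box occurred in 6 of the 7 promoters, in all but that of Timp1, and in 12.9% of all promoters. AGGAAG, a motif of Ets factors, occurred in 5 of the 7 (Mmp3, Mmp7, Mmp8, Mmp13 and Timp1) and in 29.5% of all. Searches covered both strands, and none of these matches overlapped another motif's match in the stretches printed. Promoters of Mmp2, Mmp9 and Mmp14 were not used here.

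Signals are given as log2 of the processed signal minus the 75th percentile of the array's log2 signals, so that 0 is a probe as bright as that percentile, and levels are compared for each probe between tissues only. A probe was taken as well above background where more than 1 in 2 of its spots carried that mark of the scanner software. OSCC was compared with normal tissue by limma with the rat as a block, and a gene was called at a Benjamini-Hochberg adjusted p below 0.05 over all probes together with a change of at least 2-fold. By this rule 8 of the 10 genes were called higher in OSCC and 0 were called lower, beside 7.48% of the array's genes called higher and 7.24% lower. Unadjusted p-values below 0.05 were found for 9, all with higher values in OSCC. Mmp7, Mmp8, Mmp9, Mmp10, Mmp12, Mmp13, Mmp14 and Timp1 rose, while Mmp2 and Mmp3 did not pass. All 10 mean differences were positive.

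Scan day was nearly confounded with tissue: the 11 normal arrays and OSCC from animals 4 and 9 shared a first day, and OSCC of the remaining 9 animals went through the scanner on a second day. With scan day as a further term 0 of the 10 genes were called and 5 had an unadjusted limma p below 0.05. Every difference stayed positive, but in this fit the differences come from the pairs of animals 4 and 9 alone. In that fit 3 of all 30367 probes were called. At an unadjusted limma p below 0.05 and a 2-fold change, 29.2% of all genes passed. Mmp12 then differed by 7.66 with an adjusted p of 0.085. In the pairs of animals 4 and 9, both scanned within 1 day, all 10 genes were higher in OSCC, Mmp12 by 8.06 and 7.26 and Timp1 by 4.58 and 4.09 on the log2 scale. The day-adjusted differences are the means over these same pairs, so they are no separate check. The other 9 animals do not enter them.

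**Figure D1:**
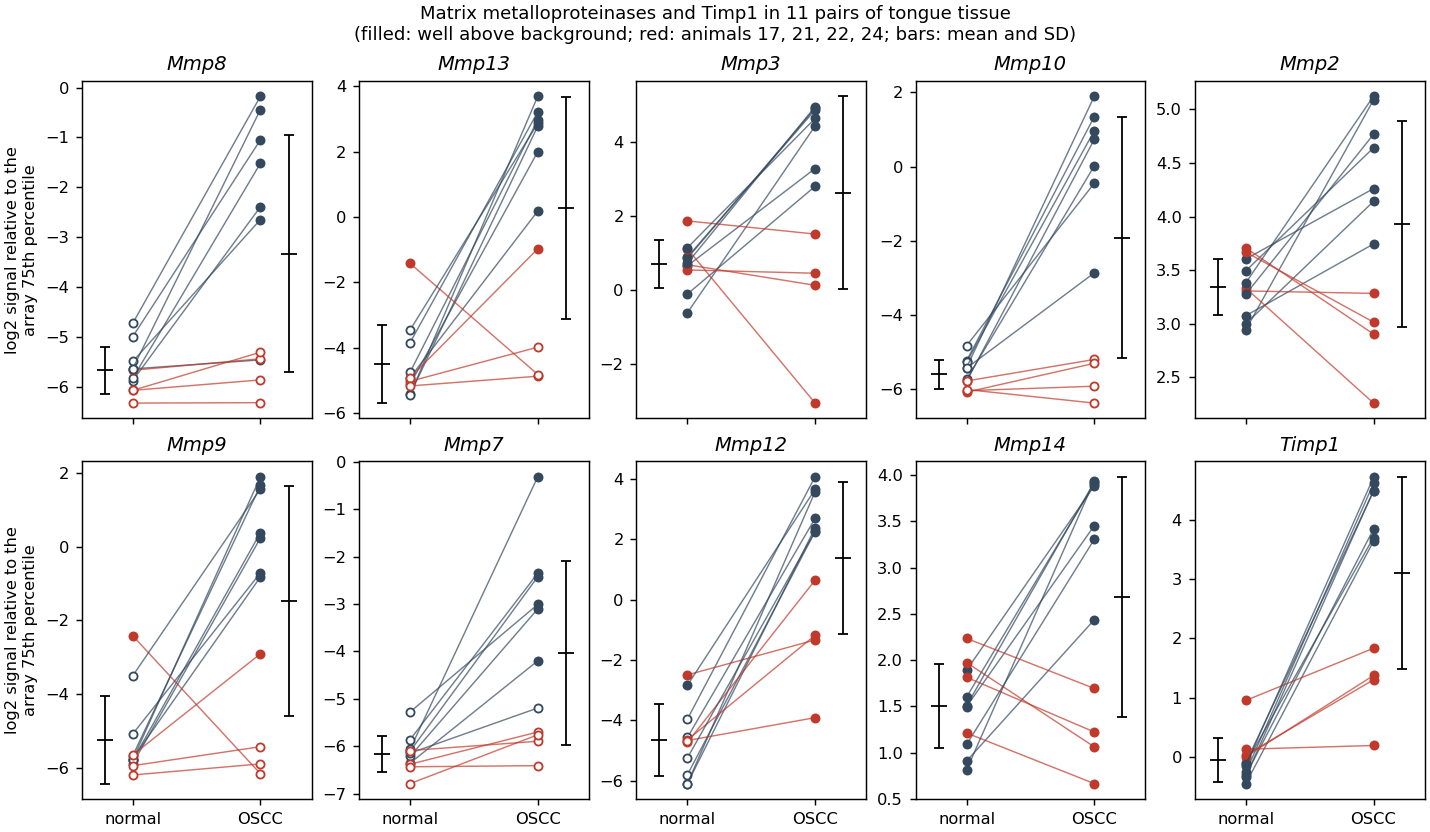
Each panel plots the log2 signal of 1 gene relative to the array 75th percentile (vertical axis, scaled to each gene) in normal tissue and OSCC, with a line per rat, filled points for arrays well above background, red for animals 17, 21, 22 and 24, and bars for the mean and SD of 11 arrays. Normal values are tight for most genes, and for most genes OSCC values are high in 7 animals and low in 4, with animal 9 joining the low ones for Mmp8 and animal 13 for Mmp7.

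Among the collagenases, Mmp8 (neutrophil collagenase) was at the edge of detection. Signals in normal tissue lay between -6.33 and -4.73 with a median of -5.67, and OSCC signals from -6.32 to -0.17 with a median of -2.65. No normal piece and 6 OSCC pieces gave a signal well above background. Those 6 OSCC arrays stood above every normal array and the other 5 lay within the normal range. The mean rose from -5.67 ± 0.47 to -3.33 ± 2.38 (SD, n = 11), a log2 difference of 2.34 (SE 0.56, limma adjusted p = 0.0068). The signal was higher in OSCC in 11 of 11 pairs, but in 5 of them, animal 24 with 0.01 included, neither piece passed the mark. With normexp background correction the difference was 0.68 and the call was lost (limma adjusted p = 0.12). Since no normal array measured it, the fold was taken against the lowest signal well above background on each normal array, or the probe's own signal if brighter, which gave at least 1.45-fold.

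Mmp13 is the main interstitial collagenase of rodents. Its normal signals spanned -5.44 to -1.42 with a median of -4.92, and its OSCC signals -4.87 to 3.69, where animal 4 held the median at 1.995. Only 1 normal piece, of animal 24, and 8 OSCC pieces gave a signal well above background. The 8 detected OSCC arrays exceeded every normal array, while those of animals 17, 22 and 24 stayed among the normal values. The mean rose from -4.50 ± 1.19 to 0.28 ± 3.40 (log2 difference 4.78, SE 1.06, limma adjusted p = 0.0045). With 10 of the 11 normal arrays near background the size of the rise depended on the processing, and normexp gave 3.03. In animal 24 the order was turned, with a difference of -3.40, and without this animal the difference was 5.59.

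The stromelysins are encoded by Mmp3 and Mmp10, close relatives that degrade proteoglycans, laminin and fibronectin and activate procollagenases. Mmp3 was well above background on all 22 arrays. In normal tissue it ranged from -0.62 to 1.86 with a median of 0.72, and in OSCC from -3.07 to 4.95 with a median of 3.28. OSCC was thus both higher and lower than normal tissue: 7 arrays exceeded every normal value, and that of animal 24 fell below them all. The mean was 0.70 ± 0.65 in normal tissue and 2.63 ± 2.61 in OSCC (n = 11). The difference of 1.93 (SE 0.77) missed the threshold with a limma adjusted p of 0.056. It was 2.54 without animal 24, with an adjusted p of 0.0059, and the gene was also called without animal 17, 21 or 22.

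Mmp10 passed the background mark in no normal piece and in 7 OSCC pieces. Values in normal tissue fell between -6.07 and -4.82 with a median of -5.73, and OSCC signals from -6.37 to 1.90 with a median of -0.45. The 7 detected OSCC arrays stood above every normal array and the other 4 passed no background mark. The mean rose from -5.59 ± 0.40 to -1.92 ± 3.25 (n = 11), a log2 difference of 3.68 (SE 0.81, limma adjusted p = 0.0042) and at least 3.87-fold. With normexp the log2 difference was 1.79. It was higher in 10 of 11 pairs, the exception being animal 24 at -0.36 with neither piece above the mark.

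Of the gelatinases, which degrade denatured collagen and the type IV collagen of basement membranes, Mmp2 is typically made by fibroblasts and Mmp9 by neutrophils, macrophages and keratinocytes. Mmp2 was well above background on all 22 arrays, with normal signals from 2.95 to 3.71 (median 3.33) and OSCC signals from 2.26 to 5.12 (median 4.14). The higher OSCC values all came from 7 animals and the other 4 pairs were level or lower. Means were 3.35 ± 0.26 and 3.93 ± 0.96 (n = 11), a difference of 0.59 (SE 0.30, 95% interval -0.07 to 1.24, limma adjusted p = 0.12). This probe covered bases 15246221 to 15246280 of chromosome 19, minus strand, in rn4, the build of the array annotation. The second Mmp2 probe, at bases 15246805 to 15246864, gave 1.06 (SE 0.34, limma adjusted p = 0.027), which passed the 2-fold rule, with OSCC higher in 9 of 11 pairs. The Mmp2 call therefore depended on the probe.

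For Mmp9 the background mark was passed in 1 normal piece, again of animal 24, and in 8 of OSCC. Normal tissue gave -6.20 to -2.42 with a median of -5.76, and OSCC signals from -6.17 to 1.91 with a median of -0.71. In 7 animals OSCC exceeded every normal value, the same 7 animals as for Mmp2. The mean rose from -5.25 ± 1.19 to -1.47 ± 3.12 (log2 difference 3.78, SE 0.95, limma adjusted p = 0.0087). The size of this rise from normal arrays near background was 1.905 with normexp. OSCC was higher in 10 of 11 pairs, and the difference in animal 24 was -3.75, without which the mean difference was 4.54.

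Mmp12, the macrophage elastase, had the largest difference of the 10, also with normexp. The normal signals ranged from -6.09 to -2.49 with a median of -4.66, and OSCC signals from -3.91 to 4.08 with a median of 2.27. Detection above background held for 2 normal pieces and for all 11 of OSCC. Only animal 22 had an OSCC value inside the normal range. The mean rose from -4.65 ± 1.20 to 1.38 ± 2.53 (log2 difference 6.03, SE 0.81, limma adjusted p = 0.00037), and OSCC was higher in 11 of 11 pairs. With normexp the difference was 3.775, so the size of the rise above the mostly undetected normal signals depended on the processing. The probe behind these values spans an intron, covering bases 4259057 to 4259413 of chromosome 8 in rn4 on the plus strand, and is shown because it carried the largest change.
Mmp12 probe: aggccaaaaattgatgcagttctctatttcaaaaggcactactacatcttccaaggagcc

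Matrilysin, encoded by Mmp7, lacks the hemopexin domain of the other secreted members and is usually made by glandular and tumour epithelium. The normal values, -6.79 to -5.28, had a median of -6.15, and the OSCC values, -6.41 to -0.31, a median of -4.20. Only OSCC passed the background mark, on 6 arrays. Of the OSCC values 7 exceeded all normal ones, and animal 16 stood well above the rest. The mean rose from -6.16 ± 0.38 to -4.03 ± 1.94 (log2 difference 2.13, SE 0.48, limma adjusted p = 0.0051). With normexp it was 0.83 and the call was lost (limma adjusted p = 0.2). No fold is given because the OSCC mean did not exceed the lower limit of detection in normal tissue, computed as for Mmp8.

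Mmp14, the membrane-type enzyme that activates pro-Mmp2 at the cell surface, was well above background on all 22 arrays. Normal signals spanned 0.81 to 2.24 with a median of 1.51, and OSCC signals from 0.66 to 3.94 with a median of 3.31. In 7 animals OSCC was above every normal value, and in the other 4 the difference lay between -0.91 and -0.54. The signal rose 2.26-fold, from a mean of 1.504 ± 0.459 to 2.68 ± 1.30 (log2 difference 1.18, SE 0.41, limma adjusted p = 0.036). This was the least secure of the 8 calls: it was lost on leaving out any 1 of the animals 4, 9, 11, 13, 16, 25 and 26, where adjusted p reached 0.08.

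Timp1, the secreted inhibitor of most of these enzymes, was well above background on all 22 arrays. It ranged in normal tissue from -0.45 to 0.95 with a median of -0.11, and OSCC signals from 0.20 to 4.72 with a median of 3.70. All but 1 of the OSCC arrays stood above every normal array, the exception being animal 21. The mean rose 8.94-fold, from -0.05 ± 0.38 to 3.11 ± 1.62 (log2 difference 3.16, SE 0.50, limma adjusted p = 8e-04), with OSCC higher in 11 of 11 pairs. Its differences varied less between the 7 high pairs, from 3.81 to 4.87, than those of any other gene with a mean difference above 2.

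For 0 of the 10 genes did every OSCC array exceed every normal array, a separation found in 0.694% of all genes. Mmp7, Mmp8, Mmp12 and Timp1 were higher in OSCC in all 11 pairs, as were 4.67% of all genes, but in 5 of the pairs Mmp7, and in 5 Mmp8, passed the background mark in neither piece.

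The same animals were high or low for most of the 10 genes. In animals 4, 9, 11, 13, 16, 25 and 26 all 10 genes were higher in OSCC, 8 to 10 of them by at least 2-fold, and the median difference over the 10 lay between 3.01 and 5.03. In animals 17, 21, 22 and 24 the medians were 0.37, 0.72, 0.17 and -0.51, and 4 to 7 genes were higher. Mmp2 on its brightest probe, Mmp3 and Mmp14 were lower than in normal tissue in all 4 of these animals, whereas Mmp12 and Timp1 were higher in all 4. For Mmp2 the difference in animal 22 was only -0.02. The second Mmp2 probe was lower in animals 17 (-1.19) and 21 (-0.74) but higher in animals 22 (0.50) and 24 (0.48). Mmp7, Mmp8 and Mmp10 passed the background mark in neither piece of these 4 animals, so the sign of their differences there is not read.

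Within the 4 animals Mmp12 still differed by 5.38 in animal 21 and 3.47 in animal 17. Animal 21 also had Mmp13 higher by 3.94 and Mmp9 by 2.75, beside a difference of -0.36 for Mmp3 and 0.06 for Timp1. In animal 24 the differences of Mmp3, Mmp9 and Mmp13 were -4.18, -3.75 and -3.40. Its normal piece had 7 of the 10 genes well above background, where the other normal pieces had 4 or 5.

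These 4 pairs stood apart over the whole array as well. Their differences over all probes correlated with the mean of the other pairs at r between 0.21 and 0.47, against 0.76 to 0.84 for each of the 7. The median difference over all probes was -0.44 to -0.30 in the 7 pairs and 0.05 to 0.30 in the 4. The mean difference over 16 skeletal muscle genes was -3.33 to -0.73 in the 7 pairs and -0.73 to 1.80 in the 4, and that over 12 salivary gland genes ranged from 0.41 to 11.28 across all pairs. The part of tissue make-up in the metalloproteinase differences was not tested. Leaving out animals 21, 22 and 24, 9 of the 10 genes were called, Mmp3 among them with a difference of 3.29.

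**Figure D2:**
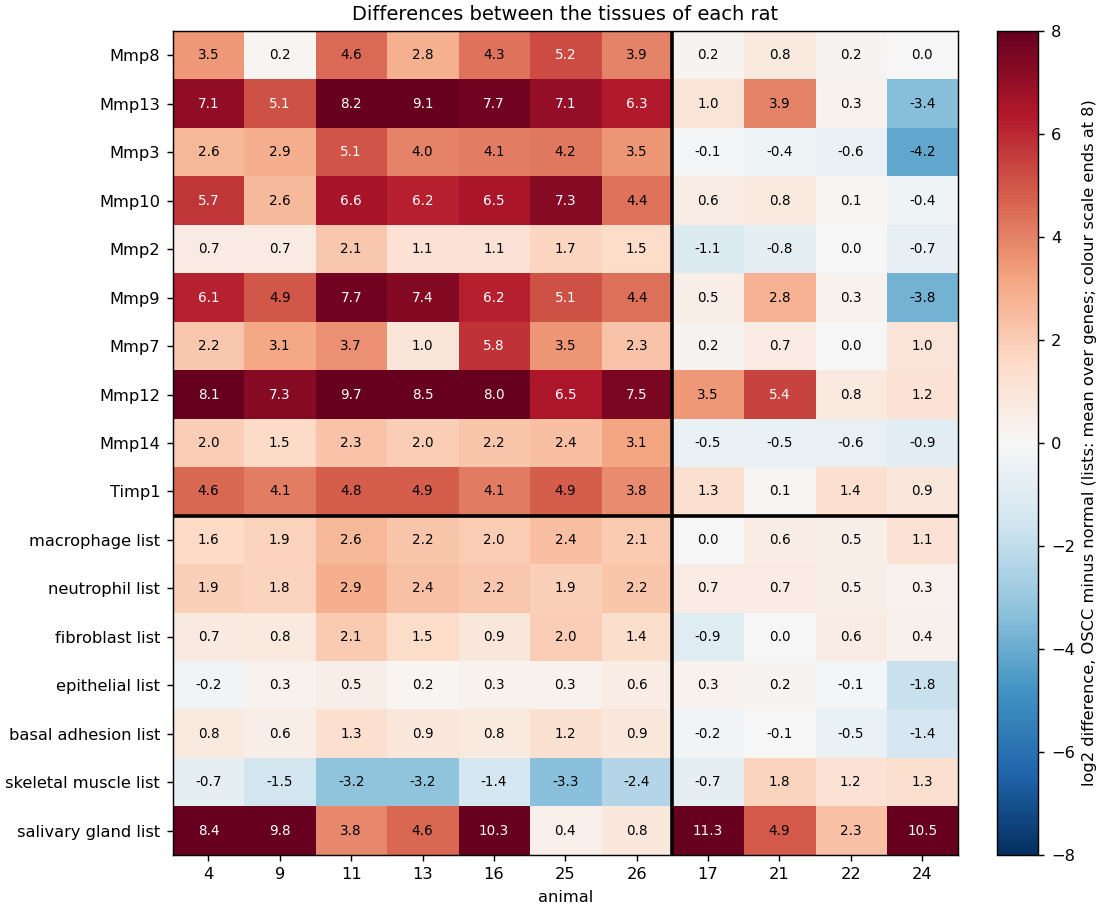
The colour and number in each cell give the log2 difference, OSCC minus normal, for 10 genes (rows above the line) and for the mean of 7 marker lists (rows below it) in each of 11 rats (columns). The 7 rats to the left of the vertical line were higher for all 10 genes, and the 4 to its right mixed falls with rises, the latter up to 5.38 for Mmp12 in animal 21.

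Marker lists were used to ask which metalloproteinases followed which cell types over the pairs. Of 23 macrophage genes 17 were called higher and 0 lower (median difference 1.51), Trem2 among them at 1.60. Of 25 neutrophil genes 14 were called higher and 1 lower (median 1.57), among them S100a9 (4.78), S100a8 (4.51, from 10 pairs) and Trem1, which passed the background mark on no normal array (at least 6.47-fold). Of the granule genes transcribed mainly in immature neutrophils, Camp was called higher (1.63, limma adjusted p = 0.0035) and passed the background mark in 7 OSCC pieces and no normal one, and Elane passed it in 1 OSCC piece. Mpo, Ltf, Ngp, Prtn3, Np4 and Defa were well above background on no array. Of 23 fibroblast genes 9 were called higher and 0 lower (median 0.96), Col5a2 at 1.99 the most. Of 24 epithelial genes 2 were called higher and 2 lower, and of 15 genes of basal adhesion 4 were higher and 2 lower (median 0.49). The basal adhesion list held laminin and integrin chains, other adhesion genes and, of keratins, only Krt17. Krt5, Krt14 and Krt15 belonged to the epithelial list. S100a8 and S100a9 are also made by keratinocytes. The mean log2 level of the macrophage list was -1.99 to -1.15 on normal and -1.33 to 0.80 on OSCC arrays, and that of the neutrophil list -4.46 to -3.70 and -4.10 to -1.50. Whether these cells supplied the metalloproteinase signals was not tested.

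A relation was the correlation over the 11 pairs between a gene's differences and the mean differences of a list, with two-sided permutation tests of 100000 resamples, or exact ones within fewer than 10 pairs, adjusted over the 50 relations computed. Where the pairs fell into separate clusters with a gap above 30% of the range and at least 2 pairs on each side, only the larger cluster was used. This applied to Mmp8, Mmp14, Timp1 and the neutrophil list, with animals 17, 21, 22 and 24 on the low side each time and animal 9 with them for Mmp8. A gap as wide set a single pair apart for 6 further measures, which were kept at 11 pairs. That pair was animal 24 for Mmp3, Mmp9 and the epithelial and basal adhesion lists, animal 16 for Mmp7 and animal 17 for the fibroblast list. The lists were themselves related over the pairs, the macrophage with the fibroblast list at r = 0.93, so that a gene that followed one tended to follow the other.

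By this rule 18 of the 50 relations passed. Mmp2 followed the macrophage list (r = 0.94, rho = 0.96, adjusted permutation p = 0.00025) and the fibroblast list (r = 0.94, rho = 0.99, adjusted permutation p = 0.00025) most closely. Without the 2 pairs farthest from the list median r was 0.97 and 0.92. The value of 0.94 with the fibroblast list was reached by 0.207% of all other genes detected on at least 11 arrays and by 1.18% of those called higher, whose median was 0.55. With the macrophage list 6.02% of those called higher reached the value of Mmp2. With basal adhesion Mmp2 had r = 0.86 (rho = 0.90, adjusted permutation p = 0.00294), and with the epithelial list r = 0.49 (rho = 0.63, adjusted permutation p = 0.172).

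Mmp3, Mmp9, Mmp10, Mmp12 and Mmp13 followed the basal adhesion list. Mmp3 had r = 0.98 (rho = 0.91, adjusted permutation p = 0.00025), a value reached by 0.0172% of all other genes. Mmp13 had r = 0.96 (rho = 0.83) and Mmp9 r = 0.95 (rho = 0.82), with adjusted permutation p of 0.0007 and 0.000833. Mmp10 and Mmp12 both had r = 0.91 (rho = 0.91 and 0.80), with adjusted permutation p of 0.00025 and 0.00179. Of the genes called higher, 8.5% reached the r of Mmp10 and 7.55% that of Mmp12. Leaving out the 2 farthest pairs, the 5 values lay between 0.83 and 0.96.

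The same 5 genes passed with the macrophage list at r between 0.73 and 0.86, of which Mmp10 had the highest (rho = 0.86, adjusted permutation p = 0.00506). Without the 2 farthest pairs r lay between 0.66 and 0.83, and of the 5 only Mmp10 still passed (adjusted exact permutation p = 0.0361). Mmp3 had 0.0539 in that setting, and Mmp9, Mmp12 and Mmp13 each had 0.184. Mmp12, named for macrophages, had r = 0.78 with that list (rho = 0.75, adjusted permutation p = 0.0252), a value that 33.8% of all genes called higher also reached. Mmp7 passed by r with the macrophage list alone (r = 0.73, rho = 0.76, adjusted permutation p = 0.0315), falling to 0.58 without the 2 farthest pairs. Of all genes called higher, 40.1% reached the 0.73. Mmp7 passed the background mark in neither piece of animals 13, 17, 21, 22 and 24, nor Mmp10 in animals 17, 21, 22 and 24. The same held for Mmp9 and Mmp13 in animals 17 and 22. These differences near background still enter r and rho. With quantile normalization Mmp7 also passed with the fibroblast (adjusted permutation p = 0.0425) and basal adhesion (0.0216) lists. With the fibroblast list Mmp10 (r = 0.78, rho = 0.85, adjusted permutation p = 0.0157) and Mmp3 (r = 0.71, rho = 0.89, adjusted permutation p = 0.0393) passed by r beside Mmp2. By rank Mmp7 (rho = 0.71), Mmp9 (0.78), Mmp12 (0.72) and Mmp13 (0.78) passed too, at adjusted permutation p from 0.0196 to 0.0427. Only Mmp3 passed with the epithelial list (r = 0.78, rho = 0.74, adjusted permutation p = 0.0294), where animal 24 lay far below the other pairs. It did not pass without the 2 farthest pairs (r = 0.61, adjusted permutation p = 0.219) or without animals 21, 22 and 24 (r = 0.30, adjusted permutation p = 0.504).

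Within the 7 pairs of the larger neutrophil cluster, Mmp12 followed the neutrophil list (r = 0.85, rho = 0.68, exact permutation p = 0.0179, adjusted 0.0496), and r fell to 0.58 without the 2 farthest pairs. By rank it did not pass (adjusted exact permutation p = 0.183), nor with quantile normalization (adjusted exact permutation p = 0.0572), median-centred differences (0.0556) or OSCC levels (r = 0.17, adjusted 0.731). Without animals 21, 22 and 24 its adjusted exact permutation p was 0.0812. With differences and this split into clusters, no other gene passed with neutrophils, Mmp8 and Mmp9 included. These relations had 6 or 7 pairs, so passing cannot be compared with lists kept at 11 pairs. Over all 11 pairs with no split, r was higher with neutrophils than with macrophages for all but Mmp2 and Mmp7 (Mmp9: 0.92 against 0.73). Within the 7 pairs it was so only for Mmp9 (0.72 against 0.36), Mmp12 (0.85 against 0.29) and Mmp13 (0.66 against 0.44). With OSCC levels there, macrophages led for each of them (Mmp9: 0.54 against 0.34). Mmp8, Mmp14 and Timp1 passed with none of the 5 lists within their own clusters of 6 or 7 pairs. With OSCC levels Mmp14 passed by r in its cluster, though not by rank. It did so with macrophages (r = 0.87, adjusted exact permutation p = 0.0298), neutrophils (0.78, 0.0466) and fibroblasts (0.87, 0.0138). With all 50 relations held to the 7 pairs, these adjusted exact permutation p were 0.0774 to 0.101.

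Much of what passed rested on the contrast between the 7 and the 4 pairs. When all 50 relations were computed within the 7 pairs alone, a setting chosen after seeing the data, 0 passed after adjustment and 9 had an unadjusted exact permutation p below 0.05. Mmp2 kept r = 0.94 with both the macrophage and the fibroblast list and 0.92 with basal adhesion, and Mmp3 had 0.94 with macrophages. In contrast, Mmp12 had 0.29 with macrophages and 0.26 with basal adhesion, and Mmp9 had 0.36 and 0.33. For Mmp9 this depended on the measure: with OSCC levels in place of differences it had 0.54 with macrophages and 0.91 with basal adhesion (exact permutation p = 0.00615, adjusted 0.0774) in the same 7 pairs, where Mmp12 had 0.43 and 0.26. The median of the genes called higher was 0.57 with macrophages and 0.51 with basal adhesion in the same 7 pairs. With basal adhesion Mmp3 fell there to 0.79, Mmp10 to 0.74 and Mmp13 to 0.48, from 0.98, 0.91 and 0.96 over 11 pairs. Of the genes called higher, 13.6% reached the 0.79 of Mmp3. Mmp7 had between -0.04 and 0.24 with all 5 lists.

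**Figure D3:**
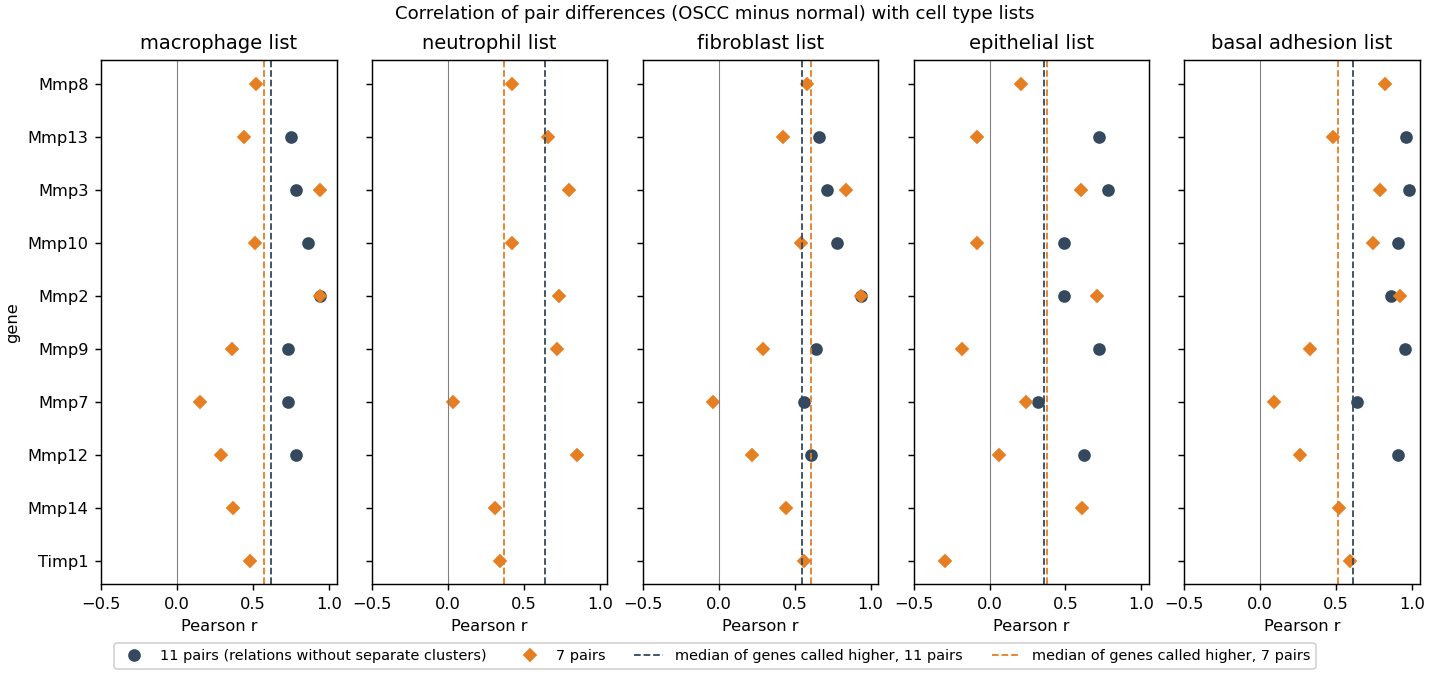
Pearson r (horizontal axis) between the pair differences of each gene (rows) and the mean differences of 5 marker lists (panels), over 11 pairs where no separate clusters were found (circles) and within 7 pairs (diamonds), with dashed lines at the median r of genes called higher. Mmp2 and Mmp3 stay to the right in both settings for the macrophage list, while Mmp7, Mmp9 and Mmp12 move left within the 7 pairs.

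The 10 genes were also set against each other within the 7 pairs. Of 45 combinations 0 passed after adjustment, and the closest were Mmp2 with Mmp3 (r = 0.89, rho = 0.86, exact permutation p = 0.00873, adjusted 0.246), Mmp9 with Mmp12 (r = 0.86, rho = 0.82, exact permutation p = 0.0109, adjusted 0.246) and Mmp9 with Mmp13 (r = 0.84, rho = 0.93, exact permutation p = 0.0165, adjusted 0.247). Without the 2 farthest pairs these became 0.72, 0.88 and 0.89. Mmp8 with Mmp10 reached 0.86 but fell to 0.14.

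Genes with the most similar differences over the 11 pairs were sought among 11634 other genes detected on at least 11 arrays, as a description in which the split of the pairs is shared by all. Nod2, an intracellular sensor of bacterial peptidoglycan, headed the order for Mmp9 (r = 0.98), Mmp12 (0.98) and Mmp13 (0.98). Mmp10 was closest to Fst, the activin-binding follistatin (0.98), and Inhba, which encodes the activin A subunit (0.98). Mmp2 was closest to Twist2, a mesenchymal transcription factor (0.99), which belongs to the fibroblast list. Mmp7 was closest to Acrbp (0.94) and to Trem2, a receptor of lipid-handling macrophages (0.92). In the levels of the 11 OSCC arrays Mmp7 and Trem2 correlated at 0.97 and Mmp7 and Acrbp at 0.41. Timp1 headed with Csf3r, the receptor for granulocyte colony-stimulating factor (0.98), Mmp14 with Arhgap22 and Tmem119 (both 0.99), Mmp3 with Igsf3 (0.99) and Mmp8 with Ptgfrn (0.95).

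A list of 36 other matrix proteases and inhibitors gave 9 called higher and 2 lower, with a median difference of 0.21. Those called higher included A2m, a general protease trap (2.66, SE 0.73, limma adjusted p = 0.014), the aggrecanase Adamts4 (2.38, SE 0.35, limma adjusted p = 0.00052) and the leukocyte enzyme Mmp25 (1.94, SE 0.22, limma adjusted p = 0.00018). Adamts4, Mmp25, Adam10 and Mmp28 were well above background on no normal array, and the lower limit of the rise was 1.13-fold for Adamts4 and 1.82-fold for Mmp25. Mmp27, which lies between Mmp8 and Mmp20 in the chromosome 8 run, fell by 1.87 (SE 0.22, limma adjusted p = 0.00018). Its signal was lower in OSCC in all 11 pairs, but it passed the background mark in only 6 normal and 2 OSCC pieces. In some pairs neither piece passed, and the sign there is not read. Mmp1a, the rodent counterpart of interstitial collagenase, gave a signal above background in 1 normal and 2 OSCC pieces and differed by 0.06.

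The inhibitors did not move as a group. Timp4 fell by 1.83 (SE 0.50, limma adjusted p = 0.014). Timp2 was higher by 0.82 (limma adjusted p = 0.0024) and in 11 of 11 pairs, but at 1.77-fold it missed the 2-fold limit. Timp3 differed by -0.27 and Reck, a membrane-bound inhibitor, by -0.11, neither called. Timp1 was thus the 1 Timp gene called higher.

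**Figure D4:**
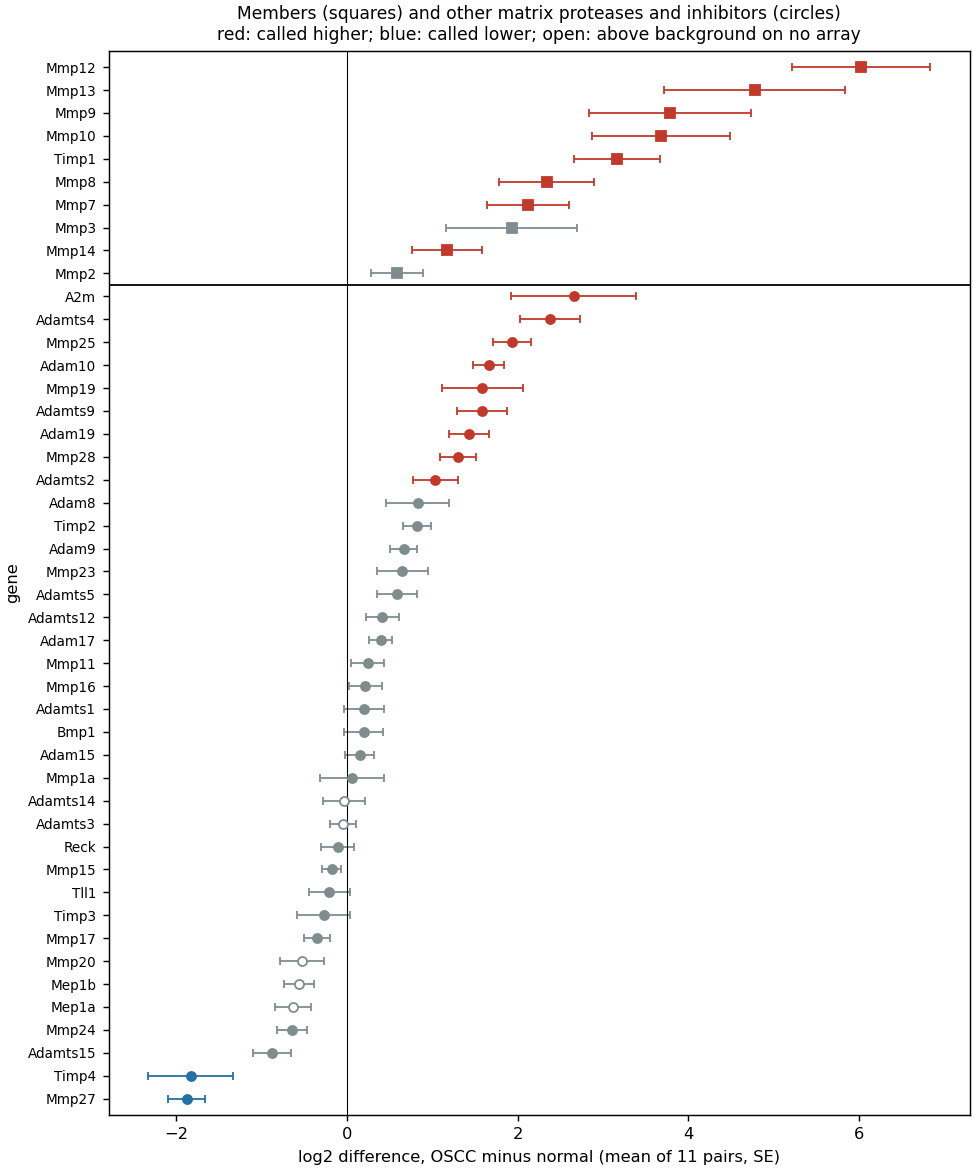
Log2 difference, OSCC minus normal (horizontal axis, mean of 11 pairs with its SE) for the 10 genes (squares) and 36 other matrix proteases and inhibitors (circles), coloured by call, with open symbols where no array was well above background. Of the circles 9 are called higher, the highest A2m at 2.66, and 2 lower, Timp4 and Mmp27.

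Genes that act with or upstream of the enzymes were listed separately. Of 21 activators and binding partners 6 were called higher and 1 lower, among them Lcn2, which binds Mmp9 in a complex (at least 12.1-fold), Thbs2 (11.2-fold), Plaur, the urokinase receptor (6.21-fold), and Thbs1 (at least 2.18-fold). The limits were taken as for Mmp8, since Lcn2 and Thbs1 passed the background mark on no normal array. The urokinase gene Plau rose by 1.36 (SE 0.22, limma adjusted p = 0.00079), whereas Cma1, a mast cell chymase, fell by 1.65. Of 31 genes listed as inducers and transcription factors 13 were called higher and 0 lower. Among them were Il1b (4.17), Il1a (3.07) and Osm (at least 3.44-fold), cytokines that induce metalloproteinases in culture. The cytokine Il11 was also called higher (at least 2.92-fold, from 10 pairs). Osm and Il11 passed the background mark on no normal array.

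Among the AP-1 genes Fosl1 rose by 2.23 (SE 0.60, limma adjusted p = 0.013) and Fos by 1.35 (SE 0.37, limma adjusted p = 0.013). Jun differed by 0.58 and Fosl2 by 0.64, below the 2-fold limit, Jund by -0.43, and Fosb was well above background on no array. Of 21 matrix substrates 11 were called higher and 1 lower, with Spp1 at 4.78, Tnc at 3.59 and Col1a1 at 1.60, and Col4a5 fell by 1.25.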

How the data were processed

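RNA of 22 tongue pieces was measured on 1-colour arrays. The authors extracted intensity values with Agilent Feature Extraction 9.5.3.1, which subtracts background, and also deposited a ratio of each signal to the 75th percentile of its array, used here as an alternative.

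Control spots and 9196 outlier spots (0.975%) were left out and spots of a probe averaged on the log2 scale. The 75th percentile was the scale of the authors' methods. Tests used limma 3.58.1 in R 4.3.3 on 30367 probes with rat and tissue as terms. Pairing comes from both pieces being taken from 1 rat. The deviations of the paired pieces from their tissue means correlated at -0.21 to 0.24 (median -0.025). On simulated data 78 of 100 probes changed by 1.5 and 99 of 100 changed by 3 log2 units were called, with 5 false calls. Correlations were computed in Python with numpy 2.4.6.

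The genes and lists were chosen with earlier results of these data known. Named were all 10 genes and their other probes, up to 4 called genes per list by size of change, genes needed to account for them, and the 3 genes most alike each. The AP-1 genes, Reck, Mmp1a, Timp2, Timp3, Timp4, Adam10, Mmp28, Plau, Cma1, Col4a5, the granule genes (Camp and Elane included) and Trem2 in its list were added after their values were seen. Of 249 listed symbols 236 were found. The number of arrays limits precision, as does closeness to background for dim genes. Array 75th percentiles were 236.8 to 654.9 in normal tissue and 338.7 to 1414 in OSCC, and no spot of the 10 genes was saturated. Alternatives were quantile, median and detected-probe scaling, normexp, the deposited ratios, scan day, slide, no pairing, the methods' t-test, a filter on dim probes and leaving out pairs.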

Additional observations from a re-analysis of the deposited data

How the results depend on the processing

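The 10 differences kept their direction under all alternatives run. Counts of these genes called higher were 8 with quantile normalization, the deposited ratios or a 75th percentile taken over detected probes, and 7 with median scaling, with slide as a random block (correlation 0.18) and with only the 9 pairs scanned on different days. They were 5 with normexp (offset 50), which lost Mmp7, Mmp8 and Mmp14, 3 of those left after a filter to probes well above background on at least 11 arrays, and 0 with scan day as a term. With scan day 3 probes were called on the whole array. Without the replicate block, that is without pairing by rat, 9 were called, Mmp3 added with an adjusted p of 0.042, and no other call changed. The methods' paired t-test called 9 at its threshold and 7 after adjustment. Leaving out 1 pair gave 7 to 9. Mmp14 was lost with median scaling, normexp, scan day, slide, the 9 pairs and the adjusted t-test. Of the 36 other proteases and inhibitors, normexp left 3 higher and 1 lower, scan day 0 and 0 (5 and 5 at an unadjusted p below 0.05), and the 9 pairs and the dim-probe filter 1 lower each. Leaving out 1 pair gave 8 to 10 higher and 2 lower. Relations that passed numbered 18. They were 26 with OSCC levels, 25 with quantile normalization, 27 with median-centred differences, 21 by rank, and 21 of the 28 that had enough of the 9 pairs to be computed, but 7 without animals 21, 22 and 24 and 9 without the 2 pairs farthest from the list median, where fewer pairs entered. Settings chosen after seeing the data gave 43 over all 11 pairs with no split, and 0 within 7 pairs with differences or with OSCC levels. Scan day and tissue overlap in all but animals 4 and 9. This limits the day-adjusted fit, whose differences and their direction rest on these animals alone. Genes well above background on no normal array have folds, where given, that are lower limits. Mmp9, Mmp12 and Mmp13 were well above background on 1 or 2 normal arrays, and their differences carry no such limit.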
